A study of Homo sapiens with 6 samples.

Results

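The 10 genes described here, BRCA1, BARD1, PALB2, BRCA2, RAD51B, RAD51C, BRIP1, ATM, ATR and CHEK2, repair or signal DNA damage, and inherited variants in many of them are known for a raised risk of breast cancer. They were taken from a list of homologous recombination and damage response genes, and every peak that overlapped a gene body or the 5 kb on either side was counted as lying at that gene. In the 4 peak lists, 112 peaks lay at the 10 genes. Joined across libraries where they shared at least 1 bp, these peaks made 56 of the 72537 regions of the series, and 8 of the 10 genes held at least 1 peak.

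The assay was 6mA-IP-seq, an immunoprecipitation of genomic DNA with an antibody to N6-methyladenine (6mA) followed by sequencing, in MDA-MB-453 cells, an established human breast cancer line. For 48 h, cells were exposed to 10 nM of a scrambled siRNA (Control) or of an siRNA that targets N6AMT1 (si-N6AMT1), which the study took to be an enzyme that methylates adenine. Each group had 2 immunoprecipitated libraries, which gave the peak lists, and 1 input library, for which no list was used here. The lists do not measure the transcript, so how far N6AMT1 was lowered is not analysed here, and the methods of the study call the libraries biological replicates without saying whether they came from separate cultures.

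Homologous recombination repairs a broken chromosome by copying the intact sister. ATM and ATR are kinases that sense broken and single-stranded DNA, and CHEK2 is a kinase that passes the signal of ATM on. BRCA1 works with BARD1 as a ubiquitin ligase, and PALB2 joins BRCA1 to BRCA2, which acts at the broken end. RAD51B and RAD51C are related proteins that act in the same repair, and BRIP1 is a helicase that binds BRCA1. In this setting 6mA is a methyl group on the amino nitrogen of adenine, so the mark itself can only lie on adenines. Whether the fragments at a summit carried it was not tested.

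The regions that the results turn on are shown first by their sequence. Each line gives the GRCh37 reference from 50 bases before to 50 bases after the summit of highest fold, read 5′ to 3′ on the strand with more adenines, with unbroken runs of at least 10 purines (adenine or guanine) in capitals. The following 9 lines show regions called in all 4 libraries.
BRCA1, upstream of the main transcript, chr17:41318112-41318212, minus strand: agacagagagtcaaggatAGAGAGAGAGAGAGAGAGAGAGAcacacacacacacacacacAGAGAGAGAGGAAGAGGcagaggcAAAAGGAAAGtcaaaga
RAD51B, intron 4, chr14:68310371-68310471, minus strand: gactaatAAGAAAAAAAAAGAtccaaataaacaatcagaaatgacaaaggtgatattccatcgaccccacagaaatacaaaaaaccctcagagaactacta
RAD51B, intron 7, chr14:68395717-68395817, minus strand: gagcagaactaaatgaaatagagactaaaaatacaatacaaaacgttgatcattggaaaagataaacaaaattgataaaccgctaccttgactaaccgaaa
RAD51B, intron 7, chr14:68420375-68420475, plus strand: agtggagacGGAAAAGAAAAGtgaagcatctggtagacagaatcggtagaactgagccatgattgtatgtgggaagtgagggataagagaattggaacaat
RAD51B, intron 7, chr14:68531453-68531553, minus strand: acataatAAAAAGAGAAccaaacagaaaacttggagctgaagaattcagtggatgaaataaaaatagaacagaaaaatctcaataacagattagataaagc
RAD51B, intron 7, chr14:68617897-68617997, minus strand: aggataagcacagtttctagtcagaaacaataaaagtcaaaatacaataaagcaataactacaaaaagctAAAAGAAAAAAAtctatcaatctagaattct
RAD51B, downstream of the main transcript, chr14:68997869-68997969, plus strand: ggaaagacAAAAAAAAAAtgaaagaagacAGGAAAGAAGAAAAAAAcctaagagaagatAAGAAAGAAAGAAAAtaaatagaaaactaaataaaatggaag
BRIP1, intron 14, chr17:59837802-59837902, plus strand: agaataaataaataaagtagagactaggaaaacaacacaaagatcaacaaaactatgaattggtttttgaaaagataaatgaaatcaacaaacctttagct
ATR, intron 16, chr3:142262399-142262499, minus strand: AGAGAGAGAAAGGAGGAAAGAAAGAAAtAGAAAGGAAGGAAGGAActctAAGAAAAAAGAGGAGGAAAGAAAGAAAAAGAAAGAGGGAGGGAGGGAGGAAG

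The regions called in both libraries of 1 group and in neither of the other all lay in RAD51B. The first of the 3 lines is the region called in Control alone, and the other 2 are those called in si-N6AMT1 alone.
RAD51B, intron 7, chr14:68421579-68421679, plus strand: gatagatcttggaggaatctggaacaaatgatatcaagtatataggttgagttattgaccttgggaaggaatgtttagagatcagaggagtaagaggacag
RAD51B, intron 7, chr14:68471707-68471807, minus strand: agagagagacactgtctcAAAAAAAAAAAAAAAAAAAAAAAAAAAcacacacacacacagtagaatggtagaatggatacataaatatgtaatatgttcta
RAD51B, intron 9, chr14:68892605-68892705, minus strand: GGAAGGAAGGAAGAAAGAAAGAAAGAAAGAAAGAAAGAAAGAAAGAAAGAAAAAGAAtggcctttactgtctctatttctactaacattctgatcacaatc

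A further window, with 95% purines, is shown as an example of purine-rich sequence, chosen after the sequences were seen. Not every window of this kind is printed. It belongs to a RAD51B region called in 3 libraries.
RAD51B, intron 7, chr14:68654960-68655060, minus strand: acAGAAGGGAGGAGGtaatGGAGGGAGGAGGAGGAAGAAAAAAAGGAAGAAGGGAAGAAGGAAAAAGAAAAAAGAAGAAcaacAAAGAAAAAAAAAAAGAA

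The ATR window of intron 16 had 95% purines, with a longest run of 52, and the RAD51B window printed last had 95% and a longest run of 60. The window of RAD51B intron 9 opened with a run of 57 purines made of GGAA and GAAA repeats, and that of the si-N6AMT1 region of intron 7 held an unbroken adenine run beside a CA repeat. By contrast, the BRIP1 window of intron 14 had 52.5% adenines but no purine run longer than 7. The Control region of RAD51B was low in adenine, at 35.6%, with a longest run of 9.

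The 112 summits at the 10 genes shared these features with the summits of the whole series. A run of at least 10 purines on either strand was found in 77 of the 112 windows at the 10 genes (68.8%), in 64.0% of the windows of all 143531 peaks, and in 32.8% of windows placed 1000 bp to either side of all summits. By library, the share at the 10 genes was 66.7% and 69.2% in Control, against 70.0% and 69.0% in si-N6AMT1. Of the 56 regions, each taken once at its highest summit, 34 held such a run (60.7%), as did 8 of the 10 regions called in all 4 libraries. Summits of 1 region lie in shared sequence, so the 112 windows are not independent of each other.

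Adenine runs were the motif with the widest gap between the 10 genes and the series in percentage points, though not as a ratio, which was larger for TATATATA on few windows. AAAAAAAA on either strand was present in 40 of the 112 windows (35.7%), against 25.8% of all summits and 6.38% of the windows aside. With each region taken once, it was in 18 of 56 (32.1%), and in 3 of the 10 regions called in all 4 libraries. GAAAGAAA was present in 17.9% of windows at the 10 genes and 17% of all summits, CACACACA in 10.7% and 10.2%, GGAAGGAA in 9.82% and 9.31%, and GAGAGAGA in 8.04% and 11.0%. In the windows aside, these 4 repeats reached 3.10%, 1.68%, 0.947% and 1.16%. TATATATA was found in 3 of the 112 windows (2.68%), against 0.639% of all summits and 0.982% aside. All motifs were read on both strands, and overlapping matches of different motifs were each counted. CAGGCTGG, the leading motif of the study, was in 3 of the 112 windows (2.68%), in 3.43% of all summits and in 4.12% of the windows aside. In wider windows, of 100 bases on either side of the summit, it was in 16.1% of those at the 10 genes and in 9.59% of those of all peaks. Windows of that width 1000 bp aside held it in 13.4% of those beside the 56 regions and in 8.12% of those beside all summits, and 0 of the 10 regions called in all 4 libraries held it.

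**Figure D1:**
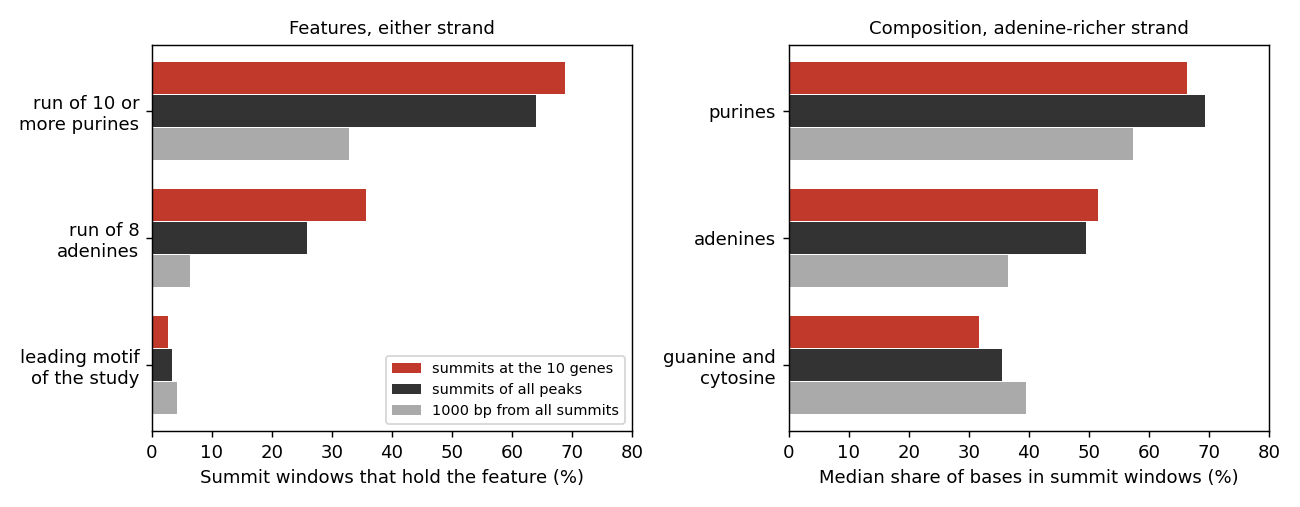
Shares of summit windows (50 bases on either side) that hold a purine run, an adenine run or the leading motif of the study (left) and median base composition (right), for the 112 summits at the 10 genes, all summits and windows 1000 bp to either side of all summits. Purine runs were in 68.8%, 64.0% and 32.8% of the 3 sets of windows, and guanine and cytosine made up a median of 31.7%, 35.6% and 39.6% of bases.

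The adenine-rich side of these regions mostly faced away from the gene. Among 55 regions in which adenines and thymines were unequal, the strand with more adenines was the antisense strand of the gene in 39 (70.9%). The share over all 61338 summits in protein-coding genes of 1 strand was 71.7%, which is similar. That share counts single peaks, while the 55 are joined regions and include some in a flank or in other annotated genes. In RAD51B the adenine-richer strand was antisense in 19 of 25 regions, in BRIP1 in 9 of 12, in ATR in 2 of 4, and in BRCA1 in 3 of 8. The BRCA1 regions at -7.29, -13.9 and -40.8 kb all counted as sense. They lay upstream of its main transcript and overlapped other annotated genes.

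The lists differed in length before any gene was considered. They held 30451 and 33410 peaks in Control, against 38847 and 40844 in si-N6AMT1. The lowest background recovered from the caller's values lay at 1.05 and 1.36 fragments in Control, against 1.41 and 1.53 in si-N6AMT1. This value rises with the number of fragments sequenced. By this indirect measure the si-N6AMT1 libraries were the deeper ones, though 1.36 and 1.41 lie close together and no read totals were used. Depth and siRNA cannot be told apart. Peaks at the 10 genes rested on 11 to 57 fragments at the summit, with medians of 17, 17, 17 and 20, close to the medians of 17 to 19 over all peaks. These counts are not scaled for depth, so an overlap of counts between groups does not show equal enrichment. Their median fold enrichment, which is the fragment pileup at the summit over the local background with 1 added to each, was 6.75, 6.15, 6.29 and 7.04, against 7.38, 6.92, 6.92 and 6.64 for all peaks of the same 4 lists.

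At the 10 genes, 27 and 26 peaks were called in Control, against 30 and 29 in si-N6AMT1. The groups did not overlap, with means of 26.5 ± 0.707 and 29.5 ± 0.707 (SD, n = 2 libraries each), but the exact two-sided permutation test gave p = 0.33, the smallest value that 2 libraries against 2 allow. The direction depended on the length of the lists. When each list was shortened to the same number of its strongest peaks, the counts became 27 and 23 in Control, against 22 and 19 in si-N6AMT1. As a share of all peaks, those at the 10 genes made up 0.0887% and 0.0778% in Control, against 0.0772% and 0.0710% in si-N6AMT1 (exact permutation p = 0.33).

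The number of genes with a peak was 5 and 7 in Control, against 4 and 6 in si-N6AMT1, so these counts overlapped (exact permutation p = 0.667). Among 20163 protein-coding genes, 34.5% and 35.4% held a peak in the Control libraries, 40.3% and 41.0% in the si-N6AMT1 libraries, and 54.2% in any library. The 10 genes are longer than most, with windows of 48.2 to 920 kb against a median of 37.2 kb, and over the 10 genes the number of regions went with window length (Spearman rho = 0.843, across genes that share the same 4 libraries). The counts of the 10 genes are therefore read beside their length.

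Per Mb of window, the 10 genes held 14.2 and 13.7 peaks in Control, against 15.8 and 15.2 in si-N6AMT1, and all protein-coding windows together 10.2 and 11.1, and 13.1 and 13.6. The density at the 10 genes was thus 1.39 and 1.23 times that at all protein-coding genes in Control, against 1.20 and 1.12 in si-N6AMT1. RAD51B made up 48.4% of the 1.9 Mb covered by the 10 windows. For the 9 genes without it, the ratio was 1.29 and 1.10 in Control, against 0.855 and 1.20 in si-N6AMT1, on both sides of 1.

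**Figure D2:**
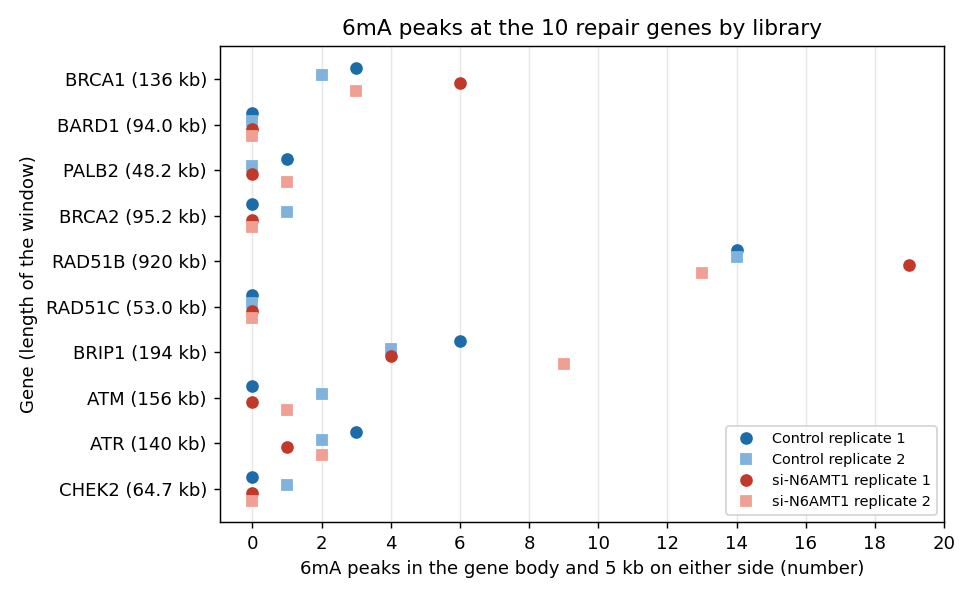
Number of 6mA peaks at each gene, with 1 point per library and the window length beside the gene name. RAD51B held 13 to 19 peaks in each library, BRIP1 4 to 9 and BRCA1 2 to 6, and BARD1 and RAD51C held none.

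BRCA1 and BARD1, partners in 1 ubiquitin ligase, stood far apart. BRCA1 held 3 and 2 peaks in Control, against 6 and 3 in si-N6AMT1, in 8 regions, and the groups met at 3. Its mean density of 25.7 peaks per Mb was 1.84 times that of chromosome 17 as a whole (14.0). The annotated gene body spans 126 kb, of which the main transcript takes up 81.1 kb. The regions at -7.29, -13.9 and -40.8 kb lay upstream of that transcript and overlapped other annotated genes. The density over the main transcript alone was not computed. BARD1, with a window of 94.0 kb on chromosome 2, held no peak in any library. Of the 4334 protein-coding genes with a window at least as long, 358 (8.26%) held none either. The lists give no signal below the calling threshold, so no upper limit can be put on 6mA at BARD1.

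The BRCA1 region called in all 4 libraries was among the strongest at the 10 genes, and it did not lie in the main transcript. It covered chr17:41317846-41318449 (GRCh37), in the part of the annotated gene body upstream of the MANE Select transcript, the reference transcript agreed for each gene. Its summit lay at -40.8 kb from the start of that transcript and 4100 bp from the start of a longer annotated one, and it overlapped ENSG00000267002, another annotated gene. The fold was 13.7 and 12.2 in Control, against 9.65 and 11.5 in si-N6AMT1, on pileups of 33, 35, 32 and 38 fragments. Both si-N6AMT1 folds were below both Control folds, by -0.30 on the log2 scale (13.0 ± 1.08 and 10.6 ± 1.30, SD, n = 2 each). The pileups themselves did not separate the groups, while the background was 1.48 and 1.95 fragments in Control, against 2.42 and 2.39 in si-N6AMT1.

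Other BRCA1 regions were called less regularly. A region at -13.9 kb from the MANE start, inside the neighbouring gene NBR2, had folds of 5.24 and 5.29 in Control and 5.91 in si-N6AMT1 replicate 1. A region of intron 13 was called in Control replicate 1, with a fold of 10.9, and in si-N6AMT1 replicate 2, with 7.04. The remaining 5 regions were called in 1 library each, 4 of them in replicate 1 of si-N6AMT1 and the other in replicate 2, at folds from 3.51 to 6.94. BRCA1 shares part of its sequence with a nearby pseudogene, and whether reads with several matches were kept is not given in the sources used here.

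The mediators PALB2 and BRCA2 had few peaks. PALB2 had 1 region, in intron 6 (chr16:23638640-23639080), called in Control replicate 1 with a fold of 7.81 and in si-N6AMT1 replicate 2 with 8.31. BRCA2 had 1 region, in intron 18 (chr13:32939773-32940145), called in Control replicate 2 alone with a fold of 6.65 on 17 fragments. The density at BRCA2 was 2.63 peaks per Mb, 0.221 times that of chromosome 13. That at PALB2 was 10.4, or 1.21 times that of chromosome 16, but rested on 2 peaks.

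RAD51B held 60 of the 112 peaks and 25 of the 56 regions, in the longest window of the list. The counts were 14 and 14 in Control, against 19 and 13 in si-N6AMT1, so that the Control libraries lay between those of si-N6AMT1. Its density of 16.3 peaks per Mb was 1.10 times that of chromosome 14, so its many peaks went with its length. Its relative RAD51C, in a window of 53.0 kb on chromosome 17, had no peak in any library. Of the 7620 protein-coding windows at least that long, 1274 (16.7%) had none.

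The peaks of RAD51B were unevenly spread. Intron 7, which is 405 kb long, held 19 of the 25 regions, or 4.70 per 100 kb. Intron 4, of 29.8 kb, held 2 and intron 5 held 1, while intron 8, of 119 kb, held none. From the start of the gene to 400 kb lay 21 regions, and 4 lay beyond. Between 400 and 600 kb, 1 region was called, at 402 kb and in Control replicate 1 alone. The densest 100 kb, from 200 to 300 kb, held 8 regions, with 4 and 5 peaks in the Control libraries and 7 and 4 peaks in those of si-N6AMT1. These positions are given as a description.

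**Figure D3:**
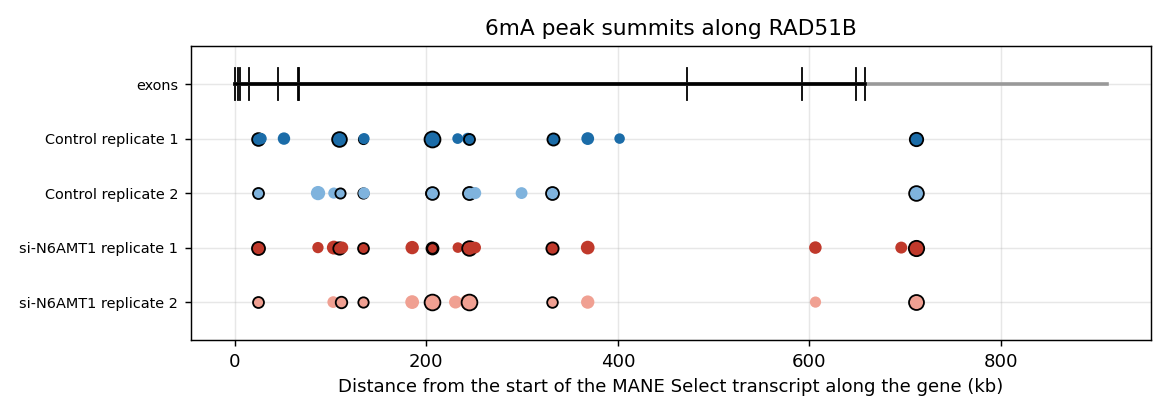
Summits of 6mA peaks along RAD51B in each library, by distance from the transcript start in kb; the area of a point is proportional to fold enrichment, a black rim marks regions called in all 4 libraries, ticks are exons, and the grey line is the gene body beyond the MANE Select transcript. Of 25 regions, 21 lie in the first 400 kb, and none lies in intron 8, between 472 and 592 kb.

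Of the RAD51B regions, 7 were called in all 4 libraries. The strongest difference was at chr14:68531171-68531999 in intron 7, where the fold was 5.30 and 7.47 in Control, against 9.35 and 10.9 in si-N6AMT1. Both si-N6AMT1 libraries lay above both Control libraries there, by 0.66 on the log2 scale (6.38 ± 1.54 and 10.1 ± 1.09). The pileups of 17, 29, 24 and 34 fragments overlapped between the groups.

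The region at chr14:68997714-68998223 lay beyond the MANE transcript but within the gene body, 711 kb from the start. Its folds were 7.86 and 9.50 in Control, against 10.3 and 9.79 in si-N6AMT1, again with both si-N6AMT1 values on top, by 0.21 on the log2 scale. The adenine share of its window was 67.3%, the highest of the 56 regions. Its pileups were 18 and 27 in Control, against 28 and 28 in si-N6AMT1.

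In the other 5 RAD51B regions the groups overlapped. The fold at chr14:68309260-68311002 in intron 4 was 7.14 and 5.33 in Control, against 7.43 and 5.25 in si-N6AMT1. At chr14:68395620-68397181 in intron 7 it was 9.52 and 4.59 in Control, against 6.75 and 5.81 in si-N6AMT1. In the first the Control values lay between those of si-N6AMT1, and in the second the reverse held. At the region 206 kb from the start the folds were 11.1 and 7.16 in Control, against 6.32 and 10.9 in si-N6AMT1, so that 1 library of each group was high. The region at chr14:68420015-68420760 was the weakest of the 10, with folds of 3.83 and 4.73, and 5.19 and 4.72. At chr14:68617728-68618674 the folds were 6.43 and 7.34 in Control, against 6.59 and 4.98 in si-N6AMT1, with the lowest value in si-N6AMT1 replicate 2.

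Regions called in 1 group alone were few. A single region, at chr14:68421391-68421847 in RAD51B intron 7, was called in both Control libraries and in neither of si-N6AMT1, with folds of 5.39 and 5.83. It was 1 of 56 regions (1.79%), against 2.62% of all regions. In RAD51B, 2 regions were called in both si-N6AMT1 libraries and in neither Control library, 3.57% of the 56 against 5.86% of all. That at chr14:68471597-68471989 in intron 7 had folds of 7.85 and 8.30, and that at chr14:68892466-68893030 in intron 9 had 6.88 and 5.51. With equal numbers of peaks the counts became 2 and 1. All 3 regions rested on 13 to 24 fragments, and a region that is not called may still hold fragments.

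The remaining RAD51B regions called in 2 or 3 libraries were mixed between the groups. In 3 libraries were those at chr14:68389130-68390209, with 5.47 in Control replicate 2 and 8.50 and 6.03 in si-N6AMT1, at chr14:68529544-68530125, with 5.98 in Control replicate 1 and 6.03 and 10.7 in si-N6AMT1, and the purine-rich one at chr14:68654791-68655257, with 7.16 in Control replicate 1 and 8.22 and 7.79 in si-N6AMT1. These 3 shared both si-N6AMT1 libraries and lacked 1 Control library each. In 2 libraries were those at chr14:68372925-68373954 (8.93 in Control replicate 2 and 5.59 in si-N6AMT1 replicate 1), chr14:68519049-68519539 (5.02 in Control replicate 1 and 4.92 in si-N6AMT1 replicate 1) and chr14:68537235-68537706 (6.46 in Control replicate 2 and 6.00 in si-N6AMT1 replicate 1).

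BRIP1 had the highest density of the 10 genes, 29.6 peaks per Mb, 2.12 times that of chromosome 17. It held 6 and 4 peaks in Control, against 4 and 9 in si-N6AMT1, in 13 regions, so that the groups overlapped. The region called in all 4 libraries lay in intron 14, at chr17:59837529-59838143, 103 kb from the start, with summits within 14 bp of each other. Its folds were 9.02 and 8.94 in Control, against 6.14 and 8.57 in si-N6AMT1. Both si-N6AMT1 values were below both Control values, by -0.29 on the log2 scale (8.98 ± 0.0600 and 7.36 ± 1.72), while the pileups were 23 and 25, and 20 and 30, and overlapped.

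The strongest BRIP1 region was not called in all libraries. It lay in intron 17, at chr17:59775746-59776320, with folds of 10.0 in Control replicate 1 and 10.3 and 9.47 in si-N6AMT1, and was not called in Control replicate 2. A neighbour in the same intron, at chr17:59774646-59775349, had folds of 6.75, 6.15 and 6.13 and was missed in si-N6AMT1 replicate 2. In intron 14, the region at chr17:59850079-59851181 had 6.33 in Control replicate 1 and 5.74 and 4.19 in si-N6AMT1. The one at chr17:59831256-59831856 had 3.78 in Control replicate 2 and 4.92 in si-N6AMT1 replicate 2. The other 8 regions were called in 1 library each, 5 of them in si-N6AMT1 replicate 2.

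The 3 damage kinases differed from one another. ATR held 3 and 2 peaks in Control, against 1 and 2 in si-N6AMT1, in 4 regions, at 0.824 times the density of chromosome 3. ATM, in a longer window of 156 kb, held 0 and 2 peaks in Control, against 0 and 1 in si-N6AMT1, at 0.299 times the density of chromosome 11. CHEK2 held 1 peak, in Control replicate 2.

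The ATR region called in all 4 libraries had the highest fold of any peak at the 10 genes. It lay in intron 16, at chr3:142262097-142262708, 35.1 kb from the start, with folds of 9.54 and 9.01 in Control, against 15.3 and 11.4 in si-N6AMT1. Both si-N6AMT1 libraries were above both Control libraries, by 0.52 on the log2 scale (9.28 ± 0.376 and 13.3 ± 2.77). The pileups of 42 and 45 in Control, against 57 and 43 in si-N6AMT1 overlapped, and the background was 3.51 and 4.10 in Control, against 2.79 and 2.87 in si-N6AMT1. Its summit is the purine-rich ATR window printed above. In the same intron, a region at chr3:142263136-142263541 had folds of 5.31 in Control replicate 1 and 4.71 in si-N6AMT1 replicate 2. Of the 2 ATR regions called in 1 library, that at chr3:142271591-142272374 reached into exon 13. Among exons of the MANE Select transcripts of the 10 genes, it was the only one touched by any of the 56 regions.

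The peaks of ATM and CHEK2 were each called in 1 library. The ATM region of highest fold lay in intron 37, at chr11:108177682-108178033, with 7.62 in Control replicate 2. The CHEK2 region lay in intron 7, at chr22:29100040-29100434, also with 7.62 in Control replicate 2, on 17 fragments. CHEK2 has partial copies elsewhere in the genome. Whether they cover this intron, so that reads from them could be counted here, was not examined.

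**Figure D4:**
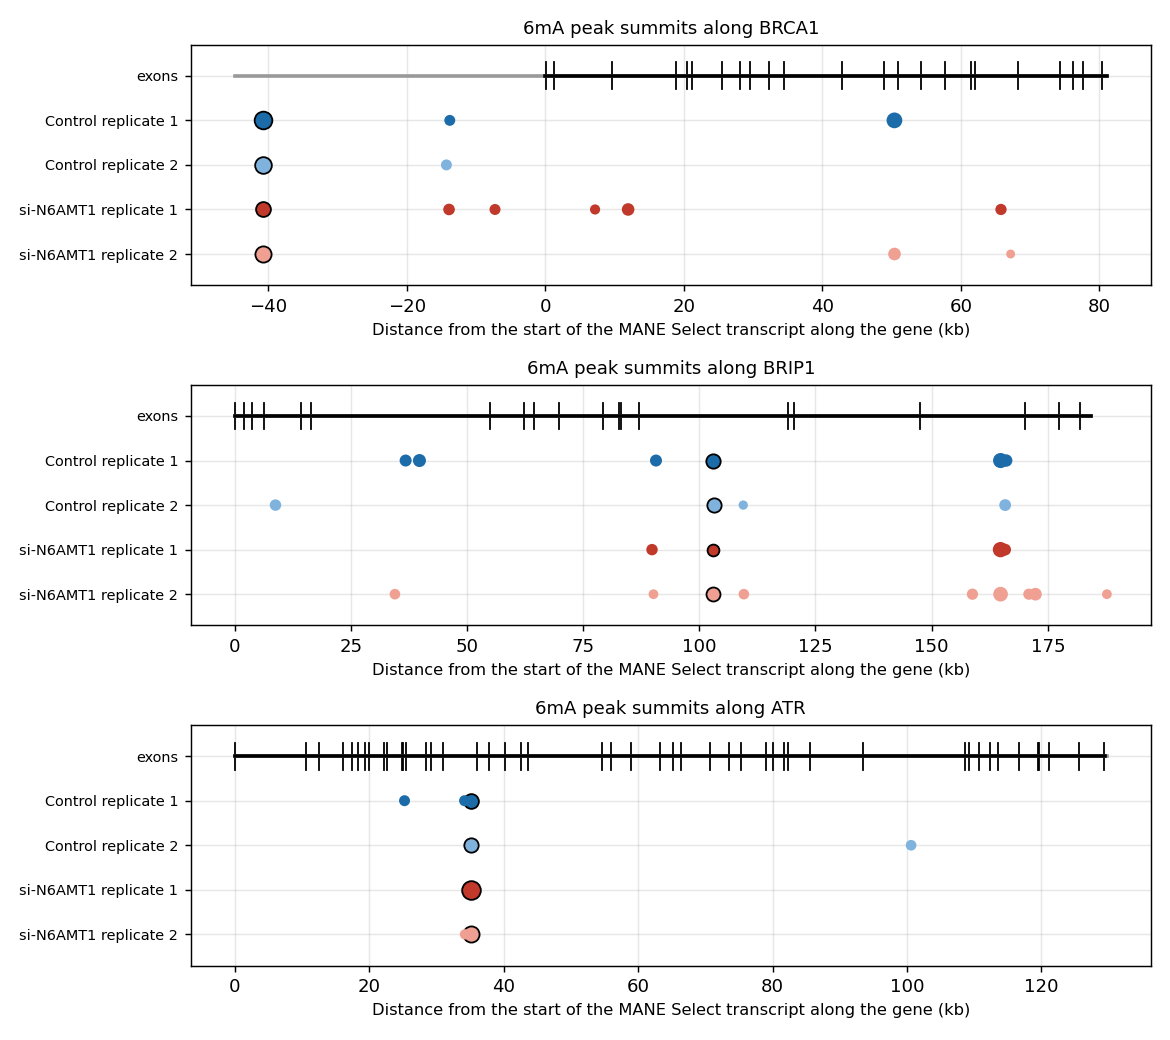
Summits of 6mA peaks along BRCA1, BRIP1 and ATR in each library, by distance from the start of the MANE Select transcript in kb; the area of a point is proportional to fold enrichment, a black rim marks regions called in all 4 libraries, ticks are exons, and the grey line is the gene body outside that transcript. Each gene has 1 region called in all 4 libraries, at -40.8 kb in BRCA1, 103 kb in BRIP1 and 35.1 kb in ATR.

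Most regions had their summit in an intron. Of the 56 regions, 50 had their summit in an intron of the MANE Select transcript, 0 in an exon and 6 outside the transcript. Exons of these transcripts make up 3.35% of the length of the 10 windows and introns 75.7%. No region had its summit within 1000 bp of an annotated start site of its gene. The part of the windows that lies so near a start site was not computed, nor was the share of all peaks there. The 0 is therefore not read as a trait of these genes. The closest was the BRCA1 region at 4100 bp.

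Over the 10 genes, 10 regions were called in all 4 libraries (17.9%), 7 in 3 (12.5%), 10 in 2 (17.9%) and 29 in 1 (51.8%). Over all regions of the series, 16.7% were called in all 4 and 49.6% in 1, so the 10 genes were close to the background in both. The regions of 1 library had folds of 3.51 to 7.62, with a median of 5.65, and were spread over the libraries, with 6 and 8 in Control, against 7 and 8 in si-N6AMT1. Not every joined region marks 1 site. The summits of the 10 regions called in all 4 libraries spanned a median of 248 bp, against 117 bp over all such regions of the series. When peaks were joined only where their summits lay within 250 bp, 5 of the 10 were left, namely the BRCA1, BRIP1 and ATR regions and those of RAD51B at 245 and 711 kb.

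In the 10 regions called in all 4 libraries, the differences in fold had both signs. Both si-N6AMT1 folds were above both Control folds in 3 of the 10, against 16.9% of all regions called in all 4 libraries. They were below in 2, against 24.3%, and the groups overlapped in 5. The median log2 difference was -0.03, with a range from -0.30 to 0.66, and the median over all regions of this kind was -0.05. With 2 libraries in each group, no region could reach an exact permutation p below 0.33. The 5 regions whose groups did not overlap in fold had pileups that overlapped in BRCA1, BRIP1, ATR and the RAD51B region at 245 kb. Pileups are not scaled for depth, so their overlap does not show that enrichment was equal.

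**Figure D5:**
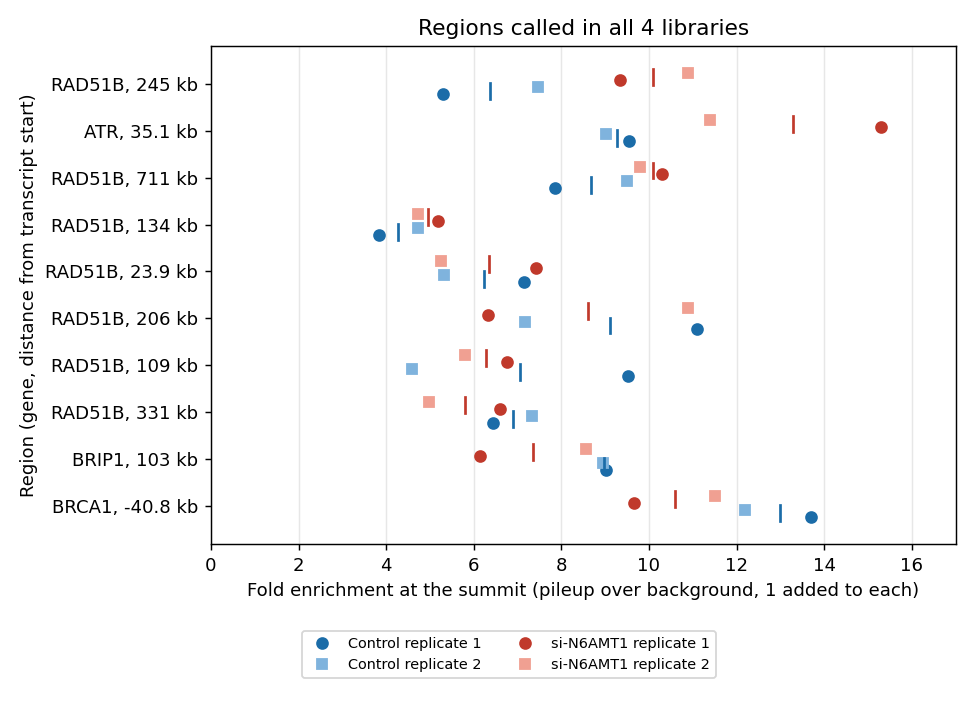
Fold enrichment in each library for the 10 regions called in all 4 libraries, sorted by the log2 difference between groups and named by gene and distance from the transcript start; short vertical lines are group means of 2 libraries. The RAD51B region at 245 kb and the ATR region show both si-N6AMT1 values to the right of both Control values, and the BRCA1 and BRIP1 regions show them to the left.

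Other genes of homologous recombination, the Fanconi anaemia pathway and the damage checkpoint were read the same way, from a list of 57 genes that holds none of the 10. A peak was found in 38 of them (66.7%), in 136 regions, against 54.2% of all protein-coding genes, and the median window was 55.5 kb against 37.2 kb. The 57 genes held 52 and 57 peaks in Control, against 57 and 63 in si-N6AMT1, and the groups met at 57 (exact permutation p = 0.667). Of the 136 regions, 11 were called in all 4 libraries (8.09%), in 9 genes, 5 in both Control libraries alone (3.68%, against 2.62% of all regions) and 5 in both si-N6AMT1 libraries alone (3.68%, against 5.86%). Regions called in all 4 libraries were thus a smaller share here than the 17.9% at the 10 genes and the 16.7% of the series.

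Of these 57 genes, RAD9A and FANCC had 2 regions each in all 4 libraries. RAD9A, counted over a window of 90.5 kb, encodes a part of the checkpoint clamp that is loaded at damaged DNA. Its stronger region, which also lies in CLCF1 and ENSG00000256514, had folds of 6.58 and 5.51 in Control, against 9.91 and 12.4 in si-N6AMT1. Where that region lies relative to the main transcript of RAD9A is not given here. FANCC, of the Fanconi core complex, had 7.74 and 9.57 in Control, against 8.44 and 8.30 in si-N6AMT1 at its stronger region. The RAD9A folds did not overlap between the groups and the FANCC folds did. RECQL, a helicase, had 7.36 and 6.72 in Control, against 8.04 and 10.0 in si-N6AMT1. RAD54B, a motor of recombination, had 8.79 and 9.71 in Control, against 8.60 and 8.50 in si-N6AMT1, at a region that also lies in the gene FSBP. DNA2, a nuclease of end resection, had 7.73 and 7.46 in Control, against 7.87 and 8.31 in si-N6AMT1. That region lay outside the DNA2 gene body and was counted because it reached the 5 kb beside it. The groups did not overlap at RECQL, RAD54B and DNA2, with si-N6AMT1 higher at RECQL and DNA2 and lower at RAD54B. BABAM2, a subunit of the BRCA1-A complex, had 6.64 and 8.13 in Control, against 10.4 and 5.93 in si-N6AMT1, which overlapped. Over all 11 regions of the 57 genes called in all 4 libraries, both si-N6AMT1 folds were above both Control folds in 4 and below them in 3, and the groups overlapped in 4, beside the background of 16.9% above and 24.3% below.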

How the data were processed

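The authors trimmed paired-end reads with Trimmomatic, mapped them to hg19 with Bowtie2 and dropped duplicates with SAMtools (versions 2.3.5 and 1.9 in the submitters' processing notes). MACS2 was then run on each library by itself, at p below 1e-05. Which input entered each call is not given in the sources used here. The deposited score is 10 times the −log10 p. The authors' caller also wrote −log10 p and −log10 q at each summit. Deposited fold enrichment is a ratio of pileup to background with 1 added to each, so it understates the plain ratio. Fold and p together gave back the pileup, which was whole within 0.02 for 100% of peaks. No read totals were used.

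Genes were taken from GENCODE v44 lifted to GRCh37, and 0 peaks ran past a chromosome end. Windows were gene bodies with 5 kb on either side. Peaks sharing at least 1 bp across libraries were joined. Groups came from sample titles and were compared by an exact two-sided permutation test over 6 assignments. Between libraries of 1 group, 53.3% to 58.4% of peaks overlapped. The members, lists, tests and motifs were chosen with earlier results of these data known. All 10 genes are named, with every region called in at least 2 libraries. A region of 1 library is named for a gene with no other, and the 6 genes of the 57 with most regions in all 4 libraries are named, with ties settled by the higher mean fold. Purine runs, the strand of adenines and the MANE Select windows were added after the data were seen. Python 3.11.15 with numpy 2.4.6, scipy 1.17.1, pysam 0.24.0 and matplotlib 3.10.9 was used, and the joining of peaks and the recovery of pileups were tested on simulated data. The sequences of some regions are not reported here.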

Additional observations from a re-analysis of the deposited data

How the results depend on the processing

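With equal numbers of peaks, the group difference in peaks at the 10 genes turned from 3 to -4.50 (si-N6AMT1 minus Control), and regions in Control alone and si-N6AMT1 alone came to 2 and 1. Without RAD51B, the density ratio to all protein-coding genes was 1.11 in place of 1.24, regions in all 4 libraries came to 3, regions in Control alone to 0 and in si-N6AMT1 alone to 0, and the median log2 fold difference was -0.29. With summits within 250 bp, regions in all 4 libraries came to 5 and that median to 0.21. Leaving out each library in turn, regions in Control alone ranged from 1 to 9 (9 without Control replicate 1, 7 without Control replicate 2 and 3 without si-N6AMT1 replicate 1). Those in si-N6AMT1 alone ranged from 3 to 10 (10 without si-N6AMT1 replicate 1, 9 without si-N6AMT1 replicate 2 and 6 without Control replicate 1). With 1 library fewer, the same class asks for fewer calls or fewer absences. Such counts can rise by that definition alone, so the rises are not read as an effect of any library. The median log2 difference ranged from -0.08 to 0.25, with 0.25 without Control replicate 1. A replicate block left the difference in peaks at 3 (exact permutation p = 0.500, the smallest that 2 pairs allow). Deviations of same-numbered libraries correlated at 0.0053 over regions, which cannot show whether those libraries were handled together. In both groups, replicate 2 had the longer list and the higher lowest background. In windows of 100 bases on either side of the summit, purine runs were in 83.9% of summits at the 10 genes and 77.2% of all. Of the other values under alternatives, 89 moved by less than the spread between libraries or stayed within 1.5 times the count or on the same side of the test. Among these, the median log2 difference changed sign without si-N6AMT1 replicate 1 (0.04) and replicate 2 (0.05), and the difference in genes with a peak went from -1 to 0 with 10 kb on either side, without Control replicate 2 and without si-N6AMT1 replicate 1. The causes were not tested. Medians of 17 to 20 fragments limit what a missed call shows.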
